A study of Homo sapiens with 6 samples.

Results

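The tricarboxylic acid (TCA) cycle enzymes described here are the products of 9 nuclear genes, CS, IDH2, IDH3A, OGDH, DLST, SUCLG1, SUCLA2, FH and MDH2. They were chosen by name, as the rows of the normalized expression table whose gene symbol is on that list, and all 9 were found among the 23026 genes of the table. The cycle runs in the mitochondrial matrix, where citrate synthase joins acetyl-CoA to oxaloacetate and the later enzymes oxidize the resulting citrate back to oxaloacetate, passing electrons to the respiratory chain. Its intermediates also feed amino acid, lipid and glucose synthesis, and glutamine can enter it as 2-oxoglutarate. In tumours, IDH2 and FH are known as sites of inherited or acquired mutation, and gliomas often carry mutations of the cytosolic enzyme IDH1.

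The study measured polyadenylated RNA by sequencing in T98G cells, an established human glioblastoma line, after depletion of the protein kinase DYRK1A. Cells were infected with lentivirus carrying either a control hairpin (shControl) or a hairpin against DYRK1A (shDYRK1A) and were selected with puromycin, so both groups carried a lentivirus and had met the drug. Each group had 3 libraries, named 1A, 1B and 1C, and Drosophila Kc167 cells, held constant relative to the number of T98G cells, were added as a spike-in. The labels do not say whether the libraries of a group came from separate infections, so p-values measure only the spread between these samples.

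The libraries held 33708297 to 42154438 reads counted in human genes. The deposited normalized counts are raw counts divided by 1 size factor per library, which was 0.821 to 1.03 in shControl and 1.06 to 1.21 in shDYRK1A. Total human counts per size factor were 40116360 to 48090252 in shControl and 31230657 to 36658657 in shDYRK1A, and the median gene of 9697 tested fell by 0.40 on the log2 scale. By design, each condition contributed the same number of T98G cells to the mix with fly cells. The counts alone cannot tell fewer human cells than intended from less RNA per cell. The shDYRK1A 1B library stood apart from its group, with a chi-square per gene of 16.1 and 19.9 against the other two, where the other pairs within a group gave 4.76 to 8.50, and calls of the 9 genes that change without it are given with and without it. DYRK1A itself had 2227, 2234 and 1895 normalized counts in shControl and 1482, 1056 and 1285 in shDYRK1A, a log2 fold change of -0.73 ± 0.147 (SE, edgeR quasi-likelihood test, adjusted p = 5.33e-06), and it was at -0.34 when the human genes set the scale (TMM, adjusted p = 0.000591). Of 8 markers of glioblastoma or glia, VIM, CD44 and EGFR were high, NES and OLIG2 had 43 to 85 raw counts and GFAP, S100B and SOX2 had 0 to 4, while 8 markers of immune, endothelial, epithelial and neuronal cells had 0 to 65 raw counts each.

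The first comparison asked whether TCA cycle transcripts differed between DYRK1A-depleted and control cells when counts were scaled to the fly cells. FH, which encodes fumarase, was the lowest of the 9 in shDYRK1A relative to shControl, at 52.6% of the control mean. IDH2, SUCLA2, CS, IDH3A and DLST also fell, to between 65.0% and 76.5% of control, while OGDH, SUCLG1 and MDH2 did not pass the test. Thus 6 of 9 genes were lower and 0 were higher at an adjusted p under 0.05, against 63.4% of all tested genes lower and 1.08% higher. Their median log2 fold change was -0.41, against -0.40 for all genes, so as a group they moved as far as the median gene did. Only FH also passed a log2 fold change of 0.7, where 14.3% of all tested genes were lower and 0.278% higher by that much. The 3 libraries of each group did not overlap for the same 6 genes, against 63.6% of all genes lower and 1.59% higher without overlap. None of the 9 was higher in edgeR before adjustment or in DESeq2's test either, since all 9 fold changes were below 0.

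**Figure D1:**
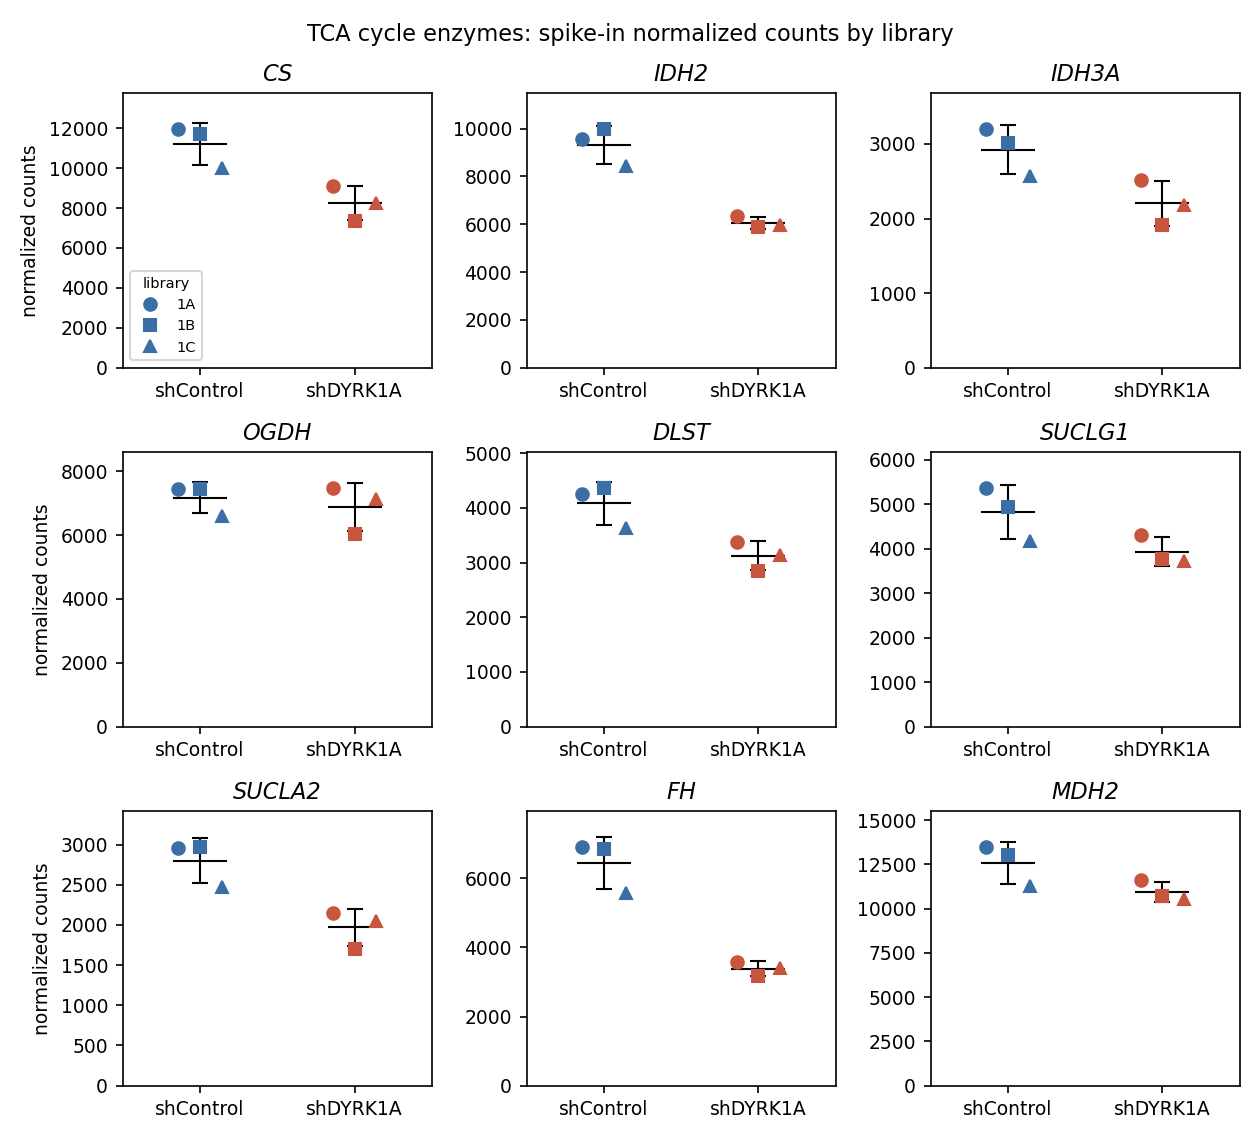
Spike-in normalized counts (vertical axes, each starting at 0) of the 9 TCA cycle genes in the shControl and shDYRK1A libraries. Circles, squares and triangles are libraries 1A, 1B and 1C, and the lines with bars are the group mean and SD (n = 3). FH and IDH2 show the widest gaps between groups, and the OGDH libraries interleave.

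Because most genes fell on the fly scale, the same counts were also scaled by TMM, which sets the bulk of human genes to no change and so gives each gene's change relative to the rest. On that scale 2 of the 9 genes were lower (FH and IDH2, against 28.6% of all genes) and 2 were higher (OGDH and MDH2, against 27.3%). None of the 9 passed the log2 fold change of 0.7 on that scale, where 1.93% of all genes were lower and 1.25% higher. As CPM, each gene's share of a library's human gene counts, FH and IDH2 were lower and OGDH, DLST, SUCLG1 and MDH2 higher without overlap between groups, against 29.3% of all genes lower and 33.5% higher. Each enzyme is described on both scales in the order of the cycle.

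The promoters of the genes were read from RefSeq (GRCh38.p14), which gave a window from 250 bases before to 50 after the start for 8 of the 9, all but OGDH. Both strands of all 35116 windows were searched for the palindrome TCTCGCGAGA, which the study links to DYRK1A at promoters, its core CTCGCGAG, the GABP word CCGGAAGT, the NRF1 word GCATGCGC, the YY1 word AAGATGGC and the CCAAT box. GABP, NRF1 and YY1 are factors known for genes of mitochondrial proteins. The words were found in 0.424%, 1.02%, 4.14%, 3.05%, 2.89% and 34.6% of windows, in that order, and the palindrome contains its core. Of the 8 windows, 0 held the full palindrome, the NRF1 word or the YY1 word, 1 held the core (MDH2), 2 held the GABP word (MDH2 and DLST) and 4 held a CCAAT box (CS, SUCLG1, SUCLA2 and FH). The windows of IDH2, IDH3A and SUCLG1 lie wholly inside their genes as the files place them, so they need not cover the outermost start. These are matches of letters only.

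Citrate synthase, the entry enzyme of the cycle, is encoded by CS (ENSG00000062485, chr12:56271699-56300392, minus strand, hg38). It had 11949, 11714 and 10007 normalized counts in the shControl libraries and 9091, 7368 and 8267 in shDYRK1A. All shDYRK1A libraries were below all shControl libraries, and the log2 fold change was -0.45 ± 0.133 (adjusted p = 0.00213). That change lay close to the median of all genes, and on the TMM scale it was -0.04 (adjusted p = 0.361).

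The cycle's oxidation of isocitrate is carried out by a pair of mitochondrial enzymes, the NADP-dependent homodimer IDH2 and the NAD-dependent complex whose catalytic subunit is IDH3A. IDH2 (ENSG00000182054, chr15:90083045-90102504, minus strand) had 9561, 9974 and 8440 normalized counts in shControl and 6357, 5867 and 5974 in shDYRK1A. The shDYRK1A libraries lay well below the shControl libraries and close to each other, and the log2 fold change was -0.62 ± 0.134 (adjusted p = 2.37e-05). It was lower on the TMM scale too, at -0.21 (adjusted p = 0.00323), and as CPM it had 199, 209 and 210 in shControl against 173, 188 and 179 in shDYRK1A. IDH3A (ENSG00000166411, chr15:78131498-78171949, plus strand) had 3197, 3013 and 2566 normalized counts in shControl and 2511, 1914 and 2184 in shDYRK1A. Its groups did not overlap, though the lowest shControl library was only just above the highest shDYRK1A library, and the log2 fold change was -0.41 ± 0.142 (adjusted p = 0.00846). The IDH3A call rested on several libraries, since it passed in only 2 of 6 fits that left 1 library out. It was lost without shControl 1A, shControl 1B, shDYRK1A 1B or shDYRK1A 1C, with an adjusted p of up to 0.0983. Without shDYRK1A 1B, IDH3A was at -0.32 (adjusted p = 0.0659). On the TMM scale its change was -0.01 (adjusted p = 0.910). In the annotation, 38.9% of the IDH3A exon bases are overlapped by CIB2 or ACSBG1 on the opposite strand. The library kit keeps strand, but whether the counting used it is not given in the sources used here.

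The 2-oxoglutarate dehydrogenase complex takes 2-oxoglutarate to succinyl-CoA, with OGDH as its decarboxylating E1 subunit and DLST as its E2 core. OGDH (ENSG00000105953, chr7:44606572-44709066, plus strand) had 7461, 7430 and 6611 normalized counts in shControl and 7469, 6027 and 7131 in shDYRK1A. The groups overlapped fully, and the log2 fold change was -0.06 ± 0.134 (95% interval -0.32 to 0.20, adjusted p = 0.693), or 0.03 without shDYRK1A 1B. Relative to the other genes it was high, since 90.6% of tested genes had a lower fold change, and on the TMM scale it was 0.34 higher on the log2 scale (adjusted p = 7.2e-05). As CPM, OGDH had 155, 155 and 165 in shControl and 204, 193 and 214 in shDYRK1A, with no overlap. DLST (ENSG00000119689, chr14:74881891-74903745, plus strand) had 4255, 4361 and 3634 normalized counts in shControl and 3383, 2855 and 3137 in shDYRK1A. The DLST groups did not overlap, and the log2 fold change was -0.39 ± 0.139 (adjusted p = 0.0112), against 0.02 on the TMM scale (adjusted p = 0.734). Like IDH3A, DLST passed in only 2 of 6 fits with 1 library left out. Its call was lost without shControl 1A, shControl 1B, shDYRK1A 1B or shDYRK1A 1C, with an adjusted p of up to 0.0884. Without shDYRK1A 1B, DLST was at -0.32 (adjusted p = 0.05475). The DLST promoter is shown because it holds the GABP word close to the start, read here on the opposite strand, in capitals (GRCh38.p14, chr14:74881871-74881911, plus strand).

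DLST: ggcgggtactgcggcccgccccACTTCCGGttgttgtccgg

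Succinyl-CoA synthetase makes GTP or ATP from succinyl-CoA, with the shared alpha subunit SUCLG1 and the ATP-forming beta subunit SUCLA2. SUCLG1 (ENSG00000163541, chr2:84423523-84460045, minus strand) had 5358, 4932 and 4174 normalized counts in shControl and 4304, 3766 and 3723 in shDYRK1A. The lowest shControl library was below the highest shDYRK1A library, and the log2 fold change was -0.29 ± 0.138 (adjusted p = 0.0505), which passed without shControl 1C or without shDYRK1A 1A, at an adjusted p as low as 0.00337, and in DESeq2's Wald test with all libraries (adjusted p = 0.0278). SUCLA2 (ENSG00000136143, chr13:47936491-48001354, minus strand) had 2951, 2966 and 2476 normalized counts in shControl and 2148, 1703 and 2053 in shDYRK1A. All shDYRK1A libraries of SUCLA2 were below all shControl libraries, and the log2 fold change was -0.51 ± 0.143 (adjusted p = 0.00114). On the TMM scale SUCLG1 was at 0.11 (adjusted p = 0.0833) and SUCLA2 at -0.10 (adjusted p = 0.0935), and each passed there without shDYRK1A 1C, at 0.0429 and 0.0434.

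Fumarase, which hydrates fumarate to malate in the matrix and also has a cytosolic form, is encoded by FH (ENSG00000091483, chr1:241497603-241519761, minus strand). FH had 6897, 6840 and 5572 normalized counts in shControl and 3588, 3159 and 3402 in shDYRK1A. Every shDYRK1A library was far below every shControl library, and the log2 fold change was -0.93 ± 0.138 (95% interval -1.20 to -0.66, adjusted p = 4.93e-10). Of all tested genes, 4.51% had a lower fold change. FH was lower relative to the other genes as well, at -0.52 ± 0.0435 on the TMM scale (adjusted p = 2.4e-06), and as CPM it had 143, 143 and 139 in shControl and 97.9, 101 and 102 in shDYRK1A. It passed in 6 of 6 fits with 1 library left out on both scales. Pseudogenes of the 9 genes were looked up by name only, and DLSTP1, SUCLA2P1, SUCLA2P2, SUCLA2P3 and FHP1 had 0 to 13 raw counts per library. Multimapping reads were tallied apart from the genes, so these counts do not show how many reads are shared. Part of the FH promoter is shown because FH had the lowest fold change of the 9, with its CCAAT boxes, read as ATTGG, in capitals (GRCh38.p14, chr1:241519810-241519870, minus strand).

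FH: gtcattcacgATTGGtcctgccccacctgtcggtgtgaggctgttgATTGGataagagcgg

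Malate dehydrogenase of the matrix, which closes the cycle by making oxaloacetate, is encoded by MDH2 (ENSG00000146701, chr7:76048051-76067508, plus strand). MDH2 had 13472, 13020 and 11267 normalized counts in shControl and 11617, 10735 and 10559 in shDYRK1A. The lowest shControl library was below the highest shDYRK1A library, and the log2 fold change was -0.20 ± 0.132 (95% interval -0.46 to 0.06, adjusted p = 0.171), though it passed at -0.27 without shControl 1C (adjusted p = 0.0227). On the TMM scale MDH2 was 0.21 higher (adjusted p = 0.00442), and as CPM it had 280, 272 and 281 in shControl and 317, 344 and 317 in shDYRK1A. Its promoter is shown because it alone of the 8 held the core of the palindrome, 52 bases before the start, along with the GABP word at 113 and 69 bases before the start (all in capitals, GRCh38.p14, chr7:76047981-76048066, plus strand).

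MDH2: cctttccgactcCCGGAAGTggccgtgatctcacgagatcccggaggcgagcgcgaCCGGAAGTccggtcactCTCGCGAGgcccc

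The start of STYXL1, transcribed the other way, lies 106 bases from that of MDH2. STYXL1 had 2967, 2803 and 2487 normalized counts in shControl and 2188, 1962 and 1895 in shDYRK1A, and its log2 fold change was -0.45 ± 0.143 (adjusted p = 0.00389), or -0.04 on the TMM scale (adjusted p = 0.533).

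**Figure D2:**
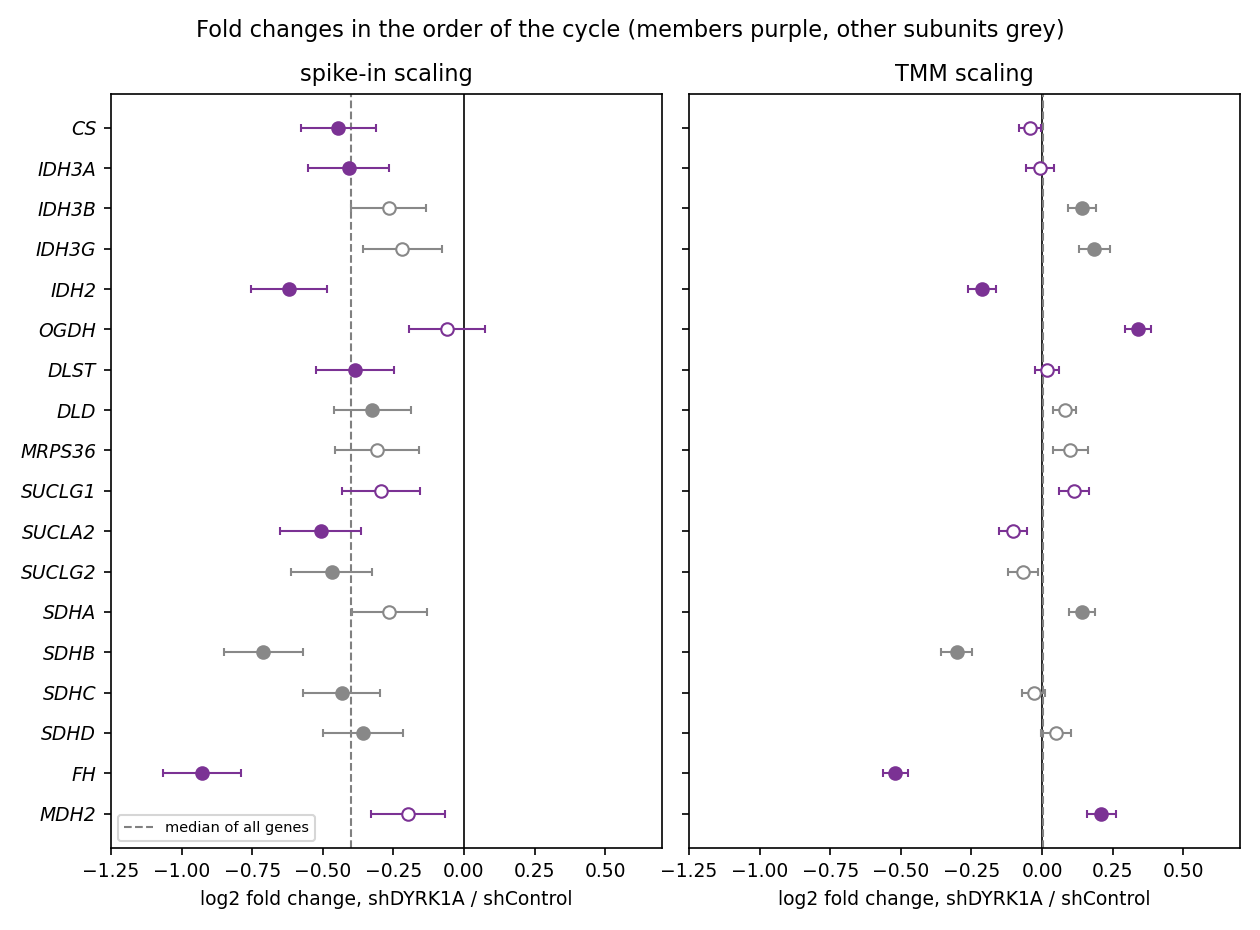
Log2 fold change of shDYRK1A over shControl (horizontal axes) for the 9 TCA cycle genes (purple) and 9 other subunits of the cycle (grey) in the order of the cycle, with spike-in scaling at left and TMM scaling at right. Bars are SE, filled points have an adjusted p under 0.05 by edgeR, and dashed lines are the medians of all genes at -0.40 and 0.00. FH lies farthest left and OGDH farthest right in both panels.

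The list of other TCA cycle subunits described here had 10 genes, of which 9 passed the filter on low values and OGDHL, with 4 to 19 raw counts, did not. On the fly scale 5 of 9 were lower and 0 higher, against 63.4% and 1.08% of all genes. SDHB, the iron-sulphur subunit of succinate dehydrogenase, fell by 0.71 (adjusted p = 2.72e-06). It only just passed the fold of 0.7, where 14.3% of all tested genes were lower by that much. That fold was not passed without shControl 1A (-0.65), shControl 1B (-0.697), shDYRK1A 1B (-0.697) or shDYRK1A 1C (-0.67). The adjusted p of SDHB stayed under 0.05 in each of these fits. SUCLG2, the GTP-forming partner of SUCLG1, fell by 0.47 (adjusted p = 0.00279), and the membrane anchors SDHC and SDHD fell by 0.43 and 0.36 (adjusted p = 0.00342 and 0.0218). DLD, the E3 subunit that OGDH and DLST share with pyruvate dehydrogenase, fell by 0.32 (adjusted p = 0.0301), a call that, like that of SDHD, was lost without shControl 1A, shControl 1B, shDYRK1A 1B or shDYRK1A 1C. With no filter on low values the DLD call was lost as well (adjusted p = 0.0636), and that of SDHD was kept (0.0456). On the TMM scale DLD was at 0.08 (adjusted p = 0.107), or 0.09 without shDYRK1A 1B (adjusted p = 0.0336). The flavoprotein SDHA was at -0.26 (adjusted p = 0.0692). The other IDH3 subunits, IDH3B and IDH3G, were at -0.27 and -0.22 (adjusted p = 0.0676 and 0.154), and MRPS36, an adaptor of the 2-oxoglutarate dehydrogenase complex, at -0.31 (adjusted p = 0.0600). SDHA, IDH3B and MRPS36 passed in DESeq2's Wald test (adjusted p = 0.0265, 0.0285 and 0.0414) and without shControl 1C, IDH3G passed without shControl 1C, and MRPS36 passed without shDYRK1A 1A too. On the TMM scale SDHB was lower (-0.30, adjusted p = 0.000668), and IDH3G (0.18), IDH3B (0.14) and SDHA (0.14) were higher, 1 of 9 and 3 of 9 against 28.6% and 27.3% of all genes. The call was lost for IDH3G without shControl 1A (adjusted p = 0.0688), for IDH3B without shControl 1B or 1C (0.121 and 0.0867) and for SDHA without shControl 1A or 1B (0.0825 and 0.0649). The RefSeq windows of these other subunits were searched for the same words, whose shares over all windows are given above. The GABP word was in SDHD and IDH3B, the NRF1 word in SDHB, DLD and SDHD, and the YY1 word in SDHB and SUCLG2. A CCAAT box was in DLD, OGDHL and IDH3G, and the full palindrome in IDH3G alone. IDH3G is the one gene of the cycle's other subunits shown with a sequence, since its RefSeq promoter holds the full palindrome, in capitals, at its start (GRCh38.p14, chrX:153794372-153794401, minus strand).

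IDH3G: aacttcgcaccccgtcgaacTCTCGCGAGA

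Pairs of related transcripts were then compared between the groups as the ratio of raw counts within each library, which no scaling factor enters. The counts were not divided by transcript length, so a ratio does not give the stoichiometry of a pair. With 3 libraries against 3, the exact two-sided permutation test cannot give a p below 0.1, so none of the 7 ratios could pass a threshold of 0.05. DLST per OGDH was 0.569 ± 0.0186 (SD, n = 3) in shControl and 0.455 ± 0.0170 in shDYRK1A, with no overlap (exact permutation p = 0.1, 0.175 after Benjamini-Hochberg adjustment over the 7 ratios). FH per MDH2, successive steps of the cycle, went from 0.511 ± 0.0154 to 0.308 ± 0.0139, the widest of the 7 differences (log2 difference -0.73, exact permutation p = 0.1, adjusted 0.175). The ratios to a cytosolic counterpart went the other way. IDH2 per IDH1 was 0.714 ± 0.0212 in shControl and 0.858 ± 0.0787 in shDYRK1A, and MDH2 per MDH1 was 1.27 ± 0.0342 and 1.48 ± 0.0521. Neither of these ratios overlapped between groups (exact permutation p = 0.1, adjusted 0.175 for both). On the fly scale IDH2 and IDH1 were both lower, at -0.62 and -0.88. MDH1 was lower there too, at -0.42, and MDH2 did not pass, at -0.20. IDH2 per IDH3A was 3.20 ± 0.179 and 2.78 ± 0.269, and SUCLA2 per SUCLG1 was 0.582 ± 0.0272 and 0.501 ± 0.0496. Both ratios overlapped between the groups (exact permutation p = 0.2, adjusted 0.233). SUCLA2 per SUCLG2, the ATP-forming over the GTP-forming subunit, was 1.11 ± 0.0560 and 1.08 ± 0.0757 (exact permutation p = 0.7), and the sign of its difference turned without shDYRK1A 1B.

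**Figure D3:**
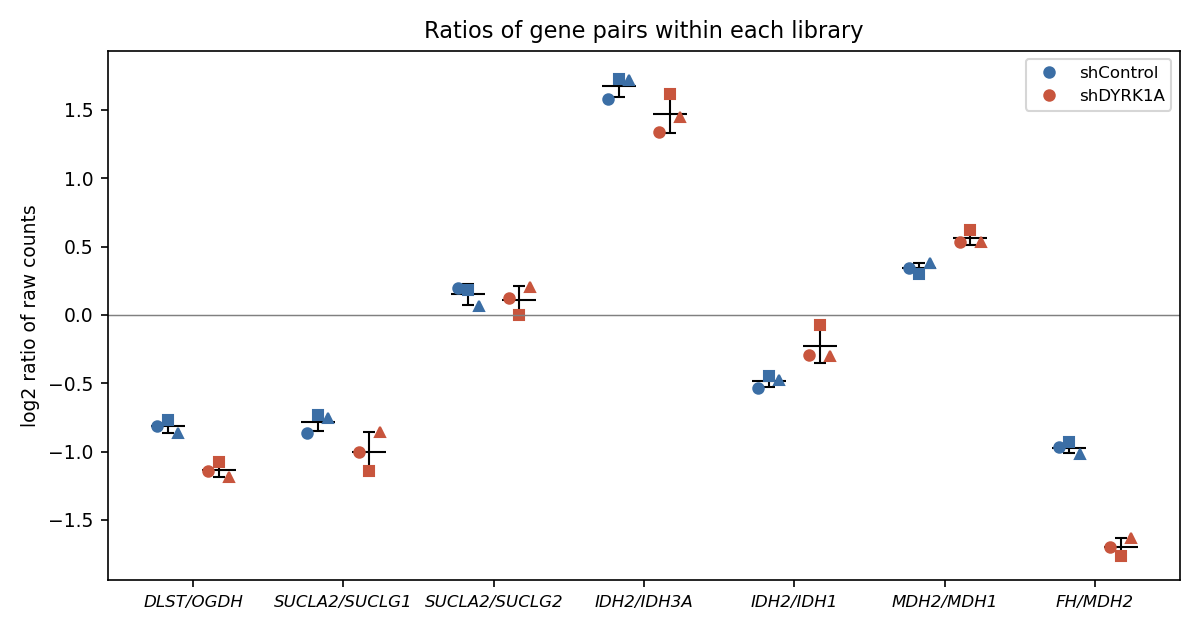
Log2 ratio of raw counts of 7 gene pairs (vertical axis) in each shControl (blue) and shDYRK1A (red) library, circles, squares and triangles marking libraries 1A, 1B and 1C. Lines with bars are the group mean and SD (n = 3). FH/MDH2 and DLST/OGDH are lower and IDH2/IDH1 and MDH2/MDH1 higher in all 3 shDYRK1A libraries, and the other 3 pairs overlap.

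The summed share of human counts in the 9 genes was 0.135%, 0.134% and 0.136% in the shControl libraries and 0.138%, 0.139% and 0.139% in shDYRK1A. The groups did not overlap, and the difference was 0.00328 percentage points. Within that sum the makeup shifted. FH took 10.5% ± 0.257 (SD, n = 3) of the counts of the 9 genes in shControl and 7.24% ± 0.114 in shDYRK1A, and IDH2 went from 15.2% ± 0.455 to 13.0% ± 0.475. OGDH took 11.7% ± 0.329 and 14.7% ± 0.742, and MDH2 20.5% ± 0.222 and 23.5% ± 1.08. CS and SUCLA2 were lower without overlap by smaller amounts, and IDH3A, DLST and SUCLG1 overlapped. These shares sum to the whole, so a fall of one gene raises the others.

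Levels between genes were compared as normalized counts per kilobase of the union of a gene's exons. In shControl the order was MDH2 at 3457 ± 320 (SD, n = 3), IDH2 at 3314 ± 282, FH at 3005 ± 349.7, CS at 1753 ± 166, OGDH at 1376 ± 92.6, SUCLG1 at 1125 ± 140, DLST at 897 ± 86.2, IDH3A at 428 ± 47.5 and SUCLA2 at 313 ± 31.2. MDH2 overlapped IDH2, and IDH2 overlapped FH, while each later neighbour pair did not overlap. Within a library, MDH2 was above IDH2 and IDH2 above FH in 3 of 3 shControl libraries. In shDYRK1A the level of MDH2 was 3013 ± 156, of IDH2 2156 ± 91.5 and of FH 1579 ± 100.4, with no overlap between them, and CS at 1287 ± 135 and OGDH at 1320 ± 145 overlapped and changed places, with OGDH above CS in 3 of 3 libraries. The order depended on the length used: per kilobase of the longest transcript, CS came second in shControl and FH moved from rank 3 in shControl to rank 5 in shDYRK1A. The SUCLA2 gene spans more of chromosome 13 in the annotation used for lengths than in the files, so its level per kilobase is uncertain.

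**Figure D4:**
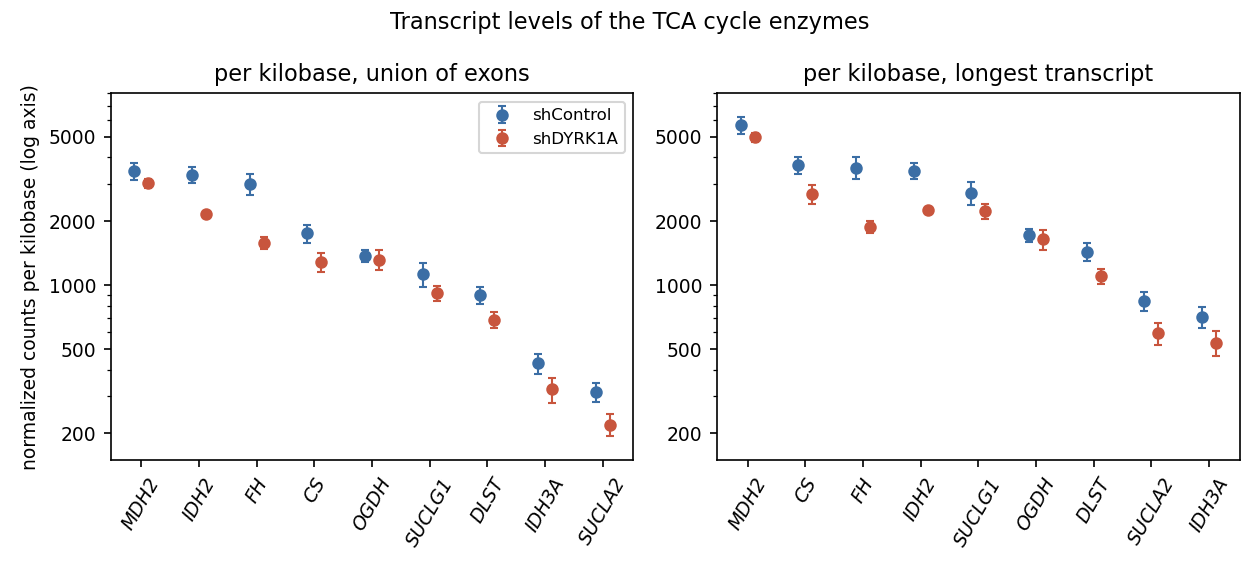
Mean normalized counts per kilobase (log axis) of the 9 TCA cycle genes in shControl (blue) and shDYRK1A (red), by the union of exons at left and by the longest transcript at right, genes ordered by the shControl level. Bars are SD (n = 3). By either length MDH2 is highest, and SUCLA2 and IDH3A are the lowest pair.

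The genes around the cycle were taken list by list. Of 7 tested isoenzymes and side enzymes, 6 were lower and 0 higher, with IDH1 (the cytosolic isocitrate dehydrogenase) at -0.88 and PCK2 (mitochondrial PEP carboxykinase) at -0.86, and with PC (pyruvate carboxylase) at -0.04 not passing. Of 12 genes of pyruvate entry, 10 were lower and 0 higher. PDK1, a kinase that shuts pyruvate dehydrogenase, was at -0.91, and the phosphatases that open it, PDP2 and PDP1, were at -0.88 and -0.83. The highest of that list, PDK2, did not pass at -0.13 (adjusted p = 0.420). PDK2 was higher on the TMM scale, at 0.28 (adjusted p = 0.00922), a call lost without shControl 1A. Of 5 genes of glutamine entry, 4 were lower and 0 higher. GPT2 (mitochondrial alanine transaminase) was at -1.09 and ALDH18A1 (proline synthesis from glutamate) at -0.73. The highest there, GOT1, did not pass at -0.26 (adjusted p = 0.0830). GOT1 was at 0.14 on the TMM scale (adjusted p = 0.0300), a call kept in only 2 of 6 fits with 1 library left out. On the TMM scale these lists had 3, 5 and 3 genes lower and 1, 2 and 1 higher, where 28.6% of all genes were lower and 27.3% higher. Of 4 carriers of the inner membrane, 2 were lower on the fly scale, with changes between -0.36 (SLC25A13) and -0.20 (SLC25A12), and 0 lower and 1 higher on the TMM scale. The SLC25A13 call was lost without shControl 1A, shControl 1B, shDYRK1A 1B (-0.26, adjusted p = 0.121) or shDYRK1A 1C. Of 7 listed genes of lipoylation and succinate dehydrogenase assembly only 2 passed the filter, LIAS (lipoic acid synthase) and SDHAF1 (an assembly factor), and both were lower, at -0.74 and -0.54, though on the TMM scale LIAS alone was (-0.33), with SDHAF1 at -0.14 (adjusted p = 0.170). Of 8 regulators of mitochondrial biogenesis 6 were lower, led by TFAM (mitochondrial DNA packaging) at -1.40 and GABPA (a subunit of GABP) at -0.84, with ESRRA at 0.03, and 4 were lower and 2 higher on the TMM scale. The background of each count was 63.4% of all genes lower and 1.08% higher on the fly scale, and 28.6% and 27.3% on the TMM scale.

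Over the 6 libraries, the genes whose log2 CPM followed the mean profile of the 9 most closely were EFTUD2 (Pearson r = 0.985), POLDIP3 (0.970) and TIMELESS (0.962), given as a description of libraries that form 2 groups. The correlations of the 9 genes themselves with that mean ran from -0.47 (OGDH) to 0.67 (CS), so the mean stood for few of them.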

How the data were processed

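RNA-seq libraries of T98G cells with fly spike-in cells were compared, 3 shControl against 3 shDYRK1A. The authors deposited raw counts per gene for each library, and a table of normalized counts, a signal that equals those counts divided by 1 size factor per library. The submitters' processing notes name STAR, DESeq2, hg38 and dm3, and versions are not given in the sources used here. Fly counts were not analysed here, so the planned size factors were replaced by those recovered from the deposited table, and their error does not enter any p-value. The authors' table of fold changes and p-values was not used.

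Raw counts were fitted by edgeR 4.0.16 (R 4.3.3) with quasi-likelihood tests, these size factors and Benjamini-Hochberg adjustment over the 9697 genes with a mean normalized CPM of at least 10. A prior count of 2 was set only for the log2 CPM values behind the profile and same-letter correlations. A p-value is called below 0.05, and the fold threshold is 0.7 on the log2 scale. TMM, median-of-ratios scaling, DESeq2 1.42.0, other filters, a replicate block and leaving out each library were alternatives. Leaving out each library under TMM was added after seeing the data. Exact permutation tests used scipy 1.17.1 (Python 3.11.15). Procedures were tested on simulated data. Between 8.44% and 15.6% of reads were unmapped, 3.42% to 3.59% ambiguous and 2.26% to 2.49% multimapping.

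All 9 genes were named, with the other subunits of the cycle, DYRK1A, and from each other list the genes past both thresholds, the lowest and the highest. A few genes of the lists are not reported here and were left out of the lists' counts. Members and lists were chosen with earlier results of these data known. Gene lengths came from GENCODE v29, whose coordinates equal those of 95.83% of genes in the files. Promoters came from RefSeq GRCh38.p14.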

Additional observations from a re-analysis of the deposited data

How the results depend on the processing

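The fold changes of the 9 enzymes depended mainly on the scaling, since the median of all genes moved from -0.40 to 0.00 when the human genes themselves set the scale. Under TMM and under median-of-ratios scaling alike, 2 of the 9 were lower, 2 were higher and 0 passed the fold threshold, and their median log2 fold change was -0.0074 and -0.0042. The sign turned under both scalings, in that order, for OGDH (0.34 and 0.34), DLST (0.018 and 0.022), SUCLG1 (0.11 and 0.12), MDH2 (0.21 and 0.21), IDH3B (0.14 and 0.15), IDH3G (0.18 and 0.19), DLD (0.079 and 0.083), SDHA (0.14 and 0.14), SDHD (0.049 and 0.052), MRPS36 (0.10 and 0.10), PC (0.36 and 0.36), PDK2 (0.28 and 0.28), GOT1 (0.14 and 0.15), SLC25A13 (0.040 and 0.043) and SLC25A12 (0.20 and 0.21). With 1 library left out, on either scale, the fold change ran from -0.51 to 0.021 for IDH3A, -0.12 to 0.37 for OGDH, -0.46 to 0.032 for DLST, -0.39 to 0.15 for SUCLG1, -0.27 to 0.24 for MDH2, -0.35 to 0.18 for IDH3B, -0.29 to 0.22 for IDH3G, -0.41 to 0.094 for DLD, -0.33 to 0.16 for SDHA, -0.44 to 0.073 for SDHD, -0.43 to 0.14 for MRPS36, -0.10 to 0.38 for PC, -0.22 to 0.36 for PDK2, -0.33 to 0.17 for GOT1, -0.45 to 0.078 for SLC25A13, -0.28 to 0.22 for SLC25A12 and -0.033 to 0.49 for ESRRA, and the log2 difference of SUCLA2 per SUCLG2 from -0.087 to 0.014. On the fly scale alone only OGDH (without shDYRK1A 1B), PC (without shControl 1B) and ESRRA (without shControl 1C) changed sign. Of 360 fold changes of the 36 named genes under alternatives on the fly scale, 357 kept their direction, 322 kept direction and call, 21 lost the call and 14 gained it. The number of the 9 that were lower was 7 with DESeq2's test, 6 with filterByExpr or no filter, 8 when shControl 1C was left out, 7 when shDYRK1A 1A was, and 4 when any other library was. Over all 9697 genes tested, 6145 were lower and 105 higher, against 2769 and 2652 under TMM and 2719 and 2709 under median-of-ratios scaling. DESeq2's test had 6607 lower and 126 higher of the same number. The filterByExpr setting tested 17530 genes, 7745 of them lower and 346 higher. With no filter 32001 were tested, 7034 of them lower and 308 higher. Without shControl 1A, 1B or 1C, 3979 of 9613, 4193 of 9639 and 7549 of 9727 genes were lower (75, 89 and 89 higher). Without shDYRK1A 1A, 1B or 1C, 6670 of 9693, 4689 of 9719 and 4293 of 9758 were lower (72, 111 and 68 higher). Libraries sharing a letter had correlations of 0.0728 to 0.151 between their deviations from the group means, and 6 of 6 libraries correlated best with their own letter, a hint from the data and not the design. With the letter as a replicate block, 6 of the 9 were lower (5911 lower and 98 higher of all genes), with a median of -0.41, and no call of a named gene changed. The error of the size factors was not tested, since the fly counts were not analysed here.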
